A study of Mus musculus with 24 samples.

Results

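Lepr encodes the leptin receptor, and all 6 probes outside controls that carry its name on a mouse expression array were followed across 24 livers, out of 56605 probes on the array. Each array held the RNA of a single male mouse 12 weeks of age, and the 4 groups had 6 animals apiece. LWT_Fed and LWT_Fasted are floxed littermates without Cre (p110α hep+/+), and LKO_Fed and LKO_Fasted carry Cre under the albumin promoter on the same p110α flox/flox background (p110α hep-/-), which removes exons of Pik3ca in hepatocytes while other liver cells keep the gene. Fasted mice had no food for 24 h, fed mice ate freely, and all were killed at ZT16, a time within the dark phase. The study asked how hepatocyte p110α, a catalytic subunit of the insulin-activated lipid kinase PI3K, shapes gene expression in the fed and the fasted liver. Lepr was chosen for its rise in LKO_Fasted, so every value of its probes that involves that group is given as a description without a test, whereas their fasting change in LWT and genotype difference in fed mice were tested. Other genes were tested in all comparisons.

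The leptin receptor is a class I cytokine receptor that binds leptin, the hormone by which adipose tissue reports its energy stores. Splicing gives forms that share the extracellular part and differ in the tail inside the cell. The long form activates the kinase JAK2 and the transcription factor STAT3 and is best known from hypothalamic neurons, short forms carry little of that signal, and a soluble form, made by splicing in the mouse or by shedding, circulates and binds leptin in plasma. The liver is known as a source of the circulating receptor.

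The 6 probes lie on chromosome 4 of mm9 over 97.8 kb, and their sequences are printed here 5′ to 3′ because they decide which transcripts each signal can come from. The files describe NM_146146 as transcript variant 1 of Lepr, NM_010704 as variant 2 and NM_001122899 as variant 3. Capitals mark every taa, tag or tga in any forward reading frame. Probes for NM_010704 are printed whole (60 bases) and the others by their first 30 bases.
ENSMUST00000145024 probe, spanning chr4:101390100-101400665: gggacacaggtgtacacctcTGAagaaaga
ENSMUST00000128948 probe, chr4:101452079-101452138: cttccttggttcttcacagaacaTAAgcag
NM_010704 upstream probe, chr4:101452666-101452725: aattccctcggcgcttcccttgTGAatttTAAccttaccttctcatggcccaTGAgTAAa
NM_010704 downstream probe, chr4:101464615-101464674: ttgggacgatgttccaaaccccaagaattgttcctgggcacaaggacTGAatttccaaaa
NM_001122899 probe, chr4:101486122-101486181: gttttcgttttgcatttTGAtgtgtttaca
NM_146146 probe, chr4:101487858-101487917: gTGActTAActgtgTAAtctcatccaagaa

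The exon, intron or UTR at each position was not annotated here. The first probe covers 10566 bases of genome with a sequence of 60 bases, so it crosses a gap between aligned blocks. Both NM_010704 probes carry further transcript accessions in the files, and the downstream one is listed for NM_146146 as well, so that one is not specific to variant 2. Whether the upstream one is specific to variant 2 was not worked out here. Over its full 60 bases the NM_010704 downstream probe left 2 of 3 forward frames without a stop triplet, the NM_146146 probe left 0, and each of the other 4 left 1. GC content ran from 35% in the NM_001122899 probe to 45% in both NM_010704 probes and the NM_146146 probe.

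Depth on an array is set by signal over background, and between 54.7% and 63.0% of spots per array were well above background. The 3 slides held 2 arrays of each group apiece. LKO_Fasted replicates 1 and 2 stood apart from the other 4 mice of their group on the second principal component, with scores of 35.1 and 31.3 against 1.4 to 2.9, so the Lepr differences that rest on that group are also given without them. Hepatocyte markers (Alb, Ttr, Apoa1 and others, 8 in all) averaged 17.2 to 17.5 on the normalized log2 scale in every liver. Pik3ca, the targeted gene, averaged 11.91 ± 0.21 in LWT_Fed and 12.54 ± 0.26 in LKO_Fed (mean ± SD, n = 6). In the fasted groups it averaged 12.28 ± 0.14 in LWT_Fasted and 12.26 ± 0.19 in LKO_Fasted. Whether its probe lies in the deleted exons was not annotated here, so these levels do not check the labels.

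All 6 Lepr probes passed the filter on dim probes, which asked for a signal well above background on 5 of the 6 arrays of any group. ENSMUST00000145024 and NM_146146 passed only through LKO_Fasted. ENSMUST00000128948 passed through each group except LWT_Fed, and the remaining 3 were well above background on all 24 arrays.

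**Figure D1:**
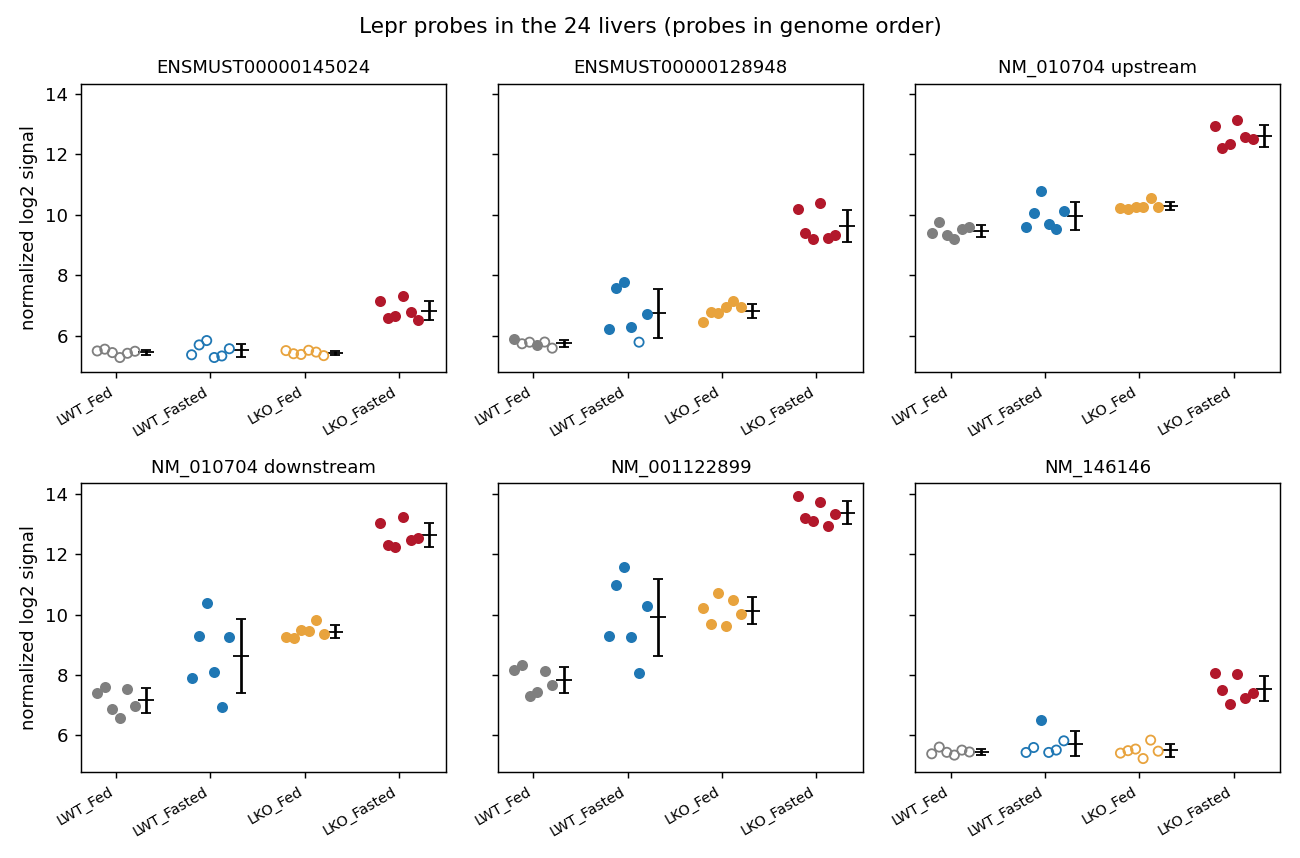
Normalized log2 signal (vertical axis) of the 6 Lepr probes, 1 panel per probe, in the 4 groups of 6 livers. Each point is 1 mouse, filled where the spot was well above background and open where it was not, and bars are mean ± SD. The LKO_Fasted points lie above all other points in every panel, the LWT_Fasted points are spread widely in the ENSMUST00000128948, NM_010704 downstream and NM_001122899 panels, and levels should not be compared between panels because probes differ in brightness.

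In LWT livers Lepr signal was higher after the fast, with a large spread between mice. The NM_001122899 probe ran from 7.29 to 8.34 in LWT_Fed (median 7.90) and from 8.07 to 11.56 in LWT_Fasted (median 9.79). Fed mice sat close together, fasted mice did not, and the lowest fasted mouse lay within the fed range. The change was 1.88 on the log2 scale (SE 0.378, 3.68-fold, adjusted p = 0.000367 by limma). For the NM_010704 downstream probe the values were 6.59 to 7.61 in LWT_Fed (median 7.19) and 6.95 to 10.38 in LWT_Fasted (median 8.68). Here too 1 fasted mouse, replicate 5, lay inside the fed range and the other 5 lay above it. This probe rose by 1.39 (SE 0.354, 2.62-fold, adjusted p = 0.00311).

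Both remaining measurable probes were also higher in LWT_Fasted. The ENSMUST00000128948 probe ran from 5.58 to 5.89 in LWT_Fed (median 5.76) and from 5.78 to 7.79 in LWT_Fasted (median 6.50). Only 2 of the 6 fed arrays and 5 of the 6 fasted arrays were well above background there, and replicate 5 again fell within the fed range. Its change was 0.88 (SE 0.245, 1.84-fold, adjusted p = 0.00633). The NM_010704 upstream probe ran from 9.20 to 9.78 in LWT_Fed (median 9.48) and from 9.54 to 10.78 in LWT_Fasted (median 9.88), and 3 fasted mice were at or below the highest fed mouse. Its change of 0.49 (SE 0.165, 1.40-fold, adjusted p = 0.0208) passed the test on p but not the 1.5-fold minimum. Without LWT_Fasted replicate 3 this change was 0.29 (adjusted p = 0.114), and without replicate 1, 4 or 5 it was 0.62, 0.59 and 0.60, past the minimum.

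In all, 3 of 6 Lepr probes were called higher in LWT_Fasted and 0 lower, where a call is an adjusted p of at most 0.05 and a fold change over 1.5. Of the 32197 probes tested, 9.14% were called in either direction, 4.47% higher and 4.67% lower. No Lepr probe had every fasted array above every fed array, a separation found for 10.7% of all probes. The ENSMUST00000145024 probe was well above background on 0 of 12 LWT arrays and the NM_146146 probe on 1 of 12, so no fold is given for either. Within slides 1, 2 and 3 the difference of means for NM_001122899 was 2.93, 2.17 and 1.12, for NM_010704 downstream 2.06, 1.62 and 0.75, for ENSMUST00000128948 1.37, 1.20 and 0.41, and for the upstream probe 0.66, 0.60 and 0.23. Slide 3 held LWT_Fasted replicates 4 and 5.

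In fed mice, deletion of p110α went with a higher Lepr signal. The NM_001122899 probe ran from 9.64 to 10.73 in LKO_Fed (median 10.13), and the NM_010704 downstream probe from 9.22 to 9.81 (median 9.42). Every LKO_Fed mouse lay above every LWT_Fed mouse for both. The differences were 2.25 (SE 0.387, 4.76-fold, adjusted p = 0.000524) and 2.23 (SE 0.362, 4.68-fold, adjusted p = 0.000347). Within slides 1 to 3 the NM_010704 downstream probe differed by 2.09, 2.02 and 2.70, and the NM_001122899 probe by 2.14, 2.11 and 2.63.

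Both measurable probes further upstream were higher in fed LKO too. The NM_010704 upstream probe ran from 10.18 to 10.55 in LKO_Fed (median 10.26), again above all LWT_Fed mice, and differed by 0.81 (SE 0.169, 1.75-fold, adjusted p = 0.00251). The ENSMUST00000128948 probe ran from 6.45 to 7.13 (median 6.85), with 6 of 6 arrays well above background, and differed by 1.06 (SE 0.251, 2.08-fold, adjusted p = 0.00612). Only 2 of the 6 LWT_Fed arrays were well above background for this probe, so its fold may understate the difference. Altogether 4 of 6 Lepr probes were called higher and 0 lower, where 3.19% of all probes were called, 2.12% higher and 1.07% lower. For the same 4 probes all LKO_Fed arrays lay above all LWT_Fed arrays, as for 4.68% of the array. The ENSMUST00000145024 and NM_146146 probes were well above background on 0 of the 12 fed arrays, and variant 1 was therefore not measurable by its probe in fed livers of either genotype.

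Fed LKO livers and fasted LWT livers overlapped, and no test was run between them. For all 4 measurable probes the LKO_Fed range lay inside the LWT_Fasted range, with group means that differed by 0.10 for ENSMUST00000128948, 0.32 for NM_010704 upstream, 0.79 for NM_010704 downstream and 0.22 for NM_001122899. The SD over 6 mice was 1.22 in LWT_Fasted against 0.22 in LKO_Fed for NM_010704 downstream, and 1.28 against 0.44 for NM_001122899. These spreads were not compared by a test. For NM_010704 upstream 5 of the 6 LWT_Fasted mice lay below every LKO_Fed mouse, so the overlap there rests on replicate 3, at 10.78.

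**Figure D2:**
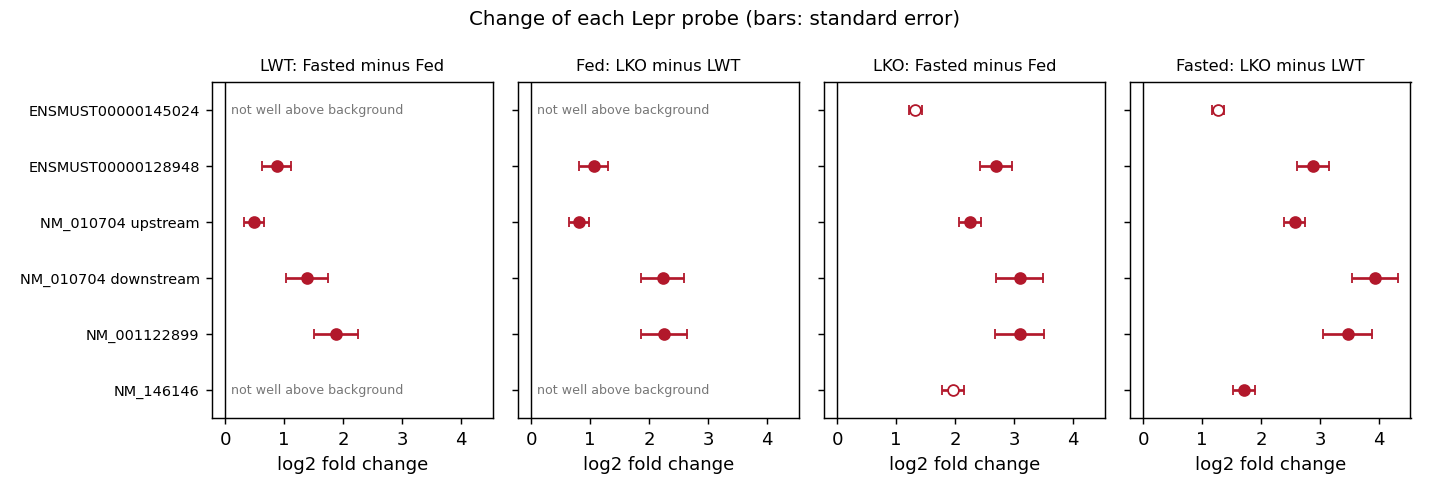
Log2 fold change (horizontal axis) of each Lepr probe in 4 comparisons, with bars for the standard error from limma. Open circles have 1 group with no array well above background, so their value is not a full fold change, and probes with at most 1 such array in either group show no point. The 2 panels on the left were tested, the 2 on the right contain the group on which Lepr was chosen and are a description, and every point lies to the right of zero.

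LKO_Fasted held the highest Lepr signal of the 4 groups on every probe. The NM_001122899 probe ran from 12.94 to 13.91 (median 13.26), NM_010704 downstream from 12.25 to 13.22 (median 12.51), and NM_010704 upstream from 12.21 to 13.16 (median 12.54). In scanner units the median of the NM_001122899 spots was 11627 in LKO_Fasted, against 974.5 in LKO_Fed, 984 in LWT_Fasted and 241 in LWT_Fed. LKO_Fasted overlapped no other group: its lowest mouse was above the highest mouse of every other group for 6 of 6 probes, where 3.81% of all probes had such a separation from LWT_Fasted and 11.5% from LKO_Fed. Nothing is read from these shares, since the gene was picked on them.

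Against LWT_Fasted the log2 differences were 3.93 for NM_010704 downstream (SE 0.385, 15.2-fold), 3.46 for NM_001122899 (SE 0.411, 11-fold), 2.88 for ENSMUST00000128948 (SE 0.266, 7.34-fold) and 2.57 for NM_010704 upstream (SE 0.179, 5.92-fold). Against LKO_Fed they were 3.09 for NM_010704 downstream (SE 0.392), 3.09 for NM_001122899 (SE 0.418), 2.69 for ENSMUST00000128948 (SE 0.271) and 2.25 for NM_010704 upstream (SE 0.183). Genotype and fasting together, as LKO_Fasted over LWT_Fed, separated the group means by 5.53 (46.2-fold) for NM_001122899 and 5.48 (44.5-fold) for NM_010704 downstream. The fasting change in LKO exceeded that in LWT by 1.70, 1.21, 1.82 and 1.76 for the 4 probes in the same order. Within slide 3 the difference from LWT_Fasted was 5.26 for NM_010704 downstream and 4.95 for NM_001122899, against 3.51 and 2.82 within slide 1 and 3.23 and 2.60 within slide 2. Without LKO_Fasted replicates 1 and 2 the differences from LWT_Fasted were 3.85, 3.28, 2.73 and 2.54 in that order, and those from LKO_Fed 3.01, 2.91, 2.55 and 2.23. The excess of the fasting change was then 1.62, 1.02, 1.67 and 1.74, and LKO_Fasted over LWT_Fed 43.4-fold for NM_001122899 and 44.0-fold for NM_010704 downstream.

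The remaining pair of probes was well above background on all 6 LKO_Fasted arrays and on at most 1 array elsewhere. The ENSMUST00000145024 probe ran from 6.52 to 7.31 (median 6.72) and was well above background on 6 of 6 LKO_Fasted arrays and on 0 of the other 18. It was at least 2.34-fold higher than in LKO_Fed and at least 2.25-fold higher than in LWT_Fasted, with means of 6.83 ± 0.32 against 5.43 ± 0.07 and 5.51 ± 0.23. The NM_146146 probe ran from 7.03 to 8.06 in LKO_Fasted (median 7.46). It was at least 3.78-fold higher than in LKO_Fed. Among LWT_Fasted mice only replicate 3 was well above background, at 6.51 against 5.43 to 5.82 in the other 5, and the group means were 7.55 in LKO_Fasted and 5.72 in LWT_Fasted. The fitted difference, in which arrays are weighted, was 1.71 on the log2 scale (SE 0.181), and 3.84 with the processed signal. For such a bound each array of the dimmer group entered at the dimmest signal called well above background on that array, or at its own signal where that was higher. The bounds hold for the quantile-normalized median signal, and after normexp background correction the log2 differences from LKO_Fed were 1.03 for ENSMUST00000145024 and 1.61 for NM_146146. With the processed signal, which has background subtracted, the log2 differences from LKO_Fed were 3.46 for ENSMUST00000145024 and 4.45 for NM_146146, against 1.32 and 1.96 without subtraction. Without LKO_Fasted replicates 1 and 2 the latter were 1.26 and 1.81.

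Change was uneven among the 3 probes that were well above background on every array. The log2 signal of 1 probe minus that of another on the same array was compared between groups for the 3 pairs and both tested comparisons, by exact two-sided permutation of 6 against 6 arrays, with p-values adjusted over the 6 tests. The smallest p this design allows is 0.00216. In fed mice the NM_010704 downstream probe rose with p110α deletion by 1.45 more than the upstream probe (adjusted p = 0.00433, exact permutation), and the NM_001122899 probe by 1.48 more than the upstream probe (adjusted p = 0.00433, exact permutation). The NM_010704 downstream and NM_001122899 probes differed from each other by 0.02 in that comparison (adjusted p = 0.885, exact permutation). In LWT fasting the NM_001122899 probe rose by 0.60 more than NM_010704 downstream (adjusted p = 0.00433, exact permutation) and by 1.58 more than the upstream probe (adjusted p = 0.013, exact permutation). NM_010704 downstream rose by 0.98 more than the upstream probe there (adjusted p = 0.026, exact permutation).

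The choice of these pairs was made after the data were seen. The other 3 probes were near background in LWT_Fed, on 2 of 6 arrays at most well above it, so their pairs are not given here. The planned tests covered all 15 pairs in both comparisons, and 25 of those 30 passed with p-values adjusted over the 30. Along the chromosome the upstream probe lies 62.57 kb from the first Lepr probe, NM_010704 downstream 74.52 kb and NM_001122899 96.02 kb. The median LWT_Fed intensity was 146 for NM_010704 downstream, 241 for NM_001122899 and 721.5 for NM_010704 upstream, and the part of probe brightness in these differences was not tested.

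Individual fasted LWT mice differed widely on some probes. On the scanner scale the NM_010704 downstream probe gave 131 in replicate 5, 241 in replicate 1, 306 in replicate 4, 604 in replicate 2, 618 in replicate 6 and 1418 in replicate 3. The highest normalized signal was 10.7-fold above the lowest, 11.3-fold for NM_001122899, 4.02-fold for ENSMUST00000128948 and 2.37-fold for NM_010704 upstream. On these 4 probes replicate 3 was the highest mouse and replicate 5 the lowest. In LKO_Fasted these probes spanned 1.96-fold, 1.97-fold, 2.33-fold and 1.93-fold in the same order. Over all 24 arrays, Pearson's r between 2 Lepr probes ran from 0.871 (ENSMUST00000145024 with NM_001122899) to 0.987 (NM_010704 downstream with NM_001122899), and after removal of the group means from 0.626 to 0.938 for the same pairs. These correlations are a description, since the probes share arrays, RNA and gene.

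**Figure D3:**
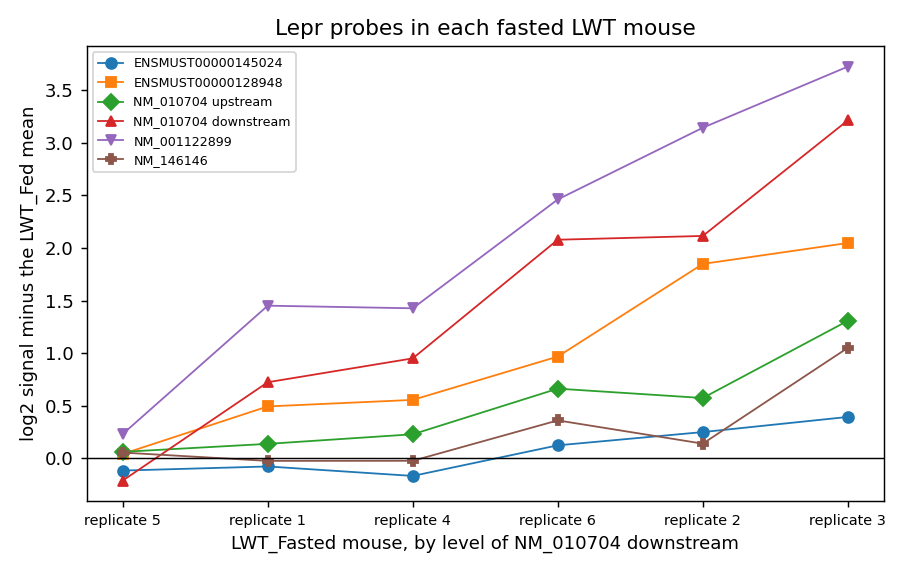
Log2 signal of the 6 Lepr probes in each LWT_Fasted mouse, as the difference from the LWT_Fed mean of the same probe (vertical axis), with mice ordered along the horizontal axis by the NM_010704 downstream probe. On the 4 other probes replicate 5 is the lowest mouse and replicate 3 the highest, while the ENSMUST00000145024 and NM_146146 lines are at background except for NM_146146 in replicate 3.

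Leprot, which encodes a small protein of endosomes that limits the receptor's arrival at the cell surface, starts from the same region as Lepr and has 2 probes at -61.35 and -58.33 kb from the first Lepr probe. No change of its signal reached 1.5-fold. The upstream probe (chr4:101328752-101328811) averaged 9.10 ± 0.12 in LWT_Fed, 9.14 ± 0.14 in LWT_Fasted, 8.83 ± 0.10 in LKO_Fed and 9.10 ± 0.13 in LKO_Fasted. The downstream probe (chr4:101331774-101331833) averaged 11.15 ± 0.07, 11.22 ± 0.22, 11.14 ± 0.10 and 11.49 ± 0.24 in the same order. Neither probe was called in any comparison. Fasting in LKO raised the upstream probe by 0.27 (adjusted p = 0.00814) and the downstream one by 0.33 (adjusted p = 0.00782). The upstream probe was lower in LKO_Fed than in LWT_Fed, by -0.25 on the log2 scale (adjusted p = 0.0225) and the downstream probe higher in LKO_Fasted than in LWT_Fasted by 0.28 (adjusted p = 0.0336), all under the 1.5-fold minimum.

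Within 1 Mb of the Lepr probes the array carries 45 other probes, of which 21 from 15 genes or transcripts were bright enough to test, the Leprot probes included. Over those 21 the log2 change ran from -0.34 to 1.06 in LWT fasting and from -0.34 to 0.74 between fed LKO and LWT. Called were 2 of the 21 in LWT fasting, 2 between fed genotypes, 2 in LKO fasting and 1 between fasted genotypes, where 9.14%, 3.19%, 12.0% and 3.61% of all probes were. LWT fasting raised Gm10576 by 1.06 (adjusted p = 2.83e-05) and E130102H24Rik by 0.82 (adjusted p = 2.11e-05), which lie at -662.94 and -370.84 kb from the first Lepr probe. Pde4b, a cyclic AMP phosphodiesterase 888 kb beyond it, was higher in LKO_Fed than in LWT_Fed on both of its probes (0.65 and 0.74, adjusted p = 0.00532 and 0.00384) and fell with fasting in LKO. Ak4, an adenylate kinase of mitochondria, was lower in LKO_Fasted than in LWT_Fasted on 1 of 2 probes (-0.67, adjusted p = 0.000698). Jak1, a kinase used by related cytokine receptors, lies at -565.01 kb and was not called in any of the comparisons.

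**Figure D4:**
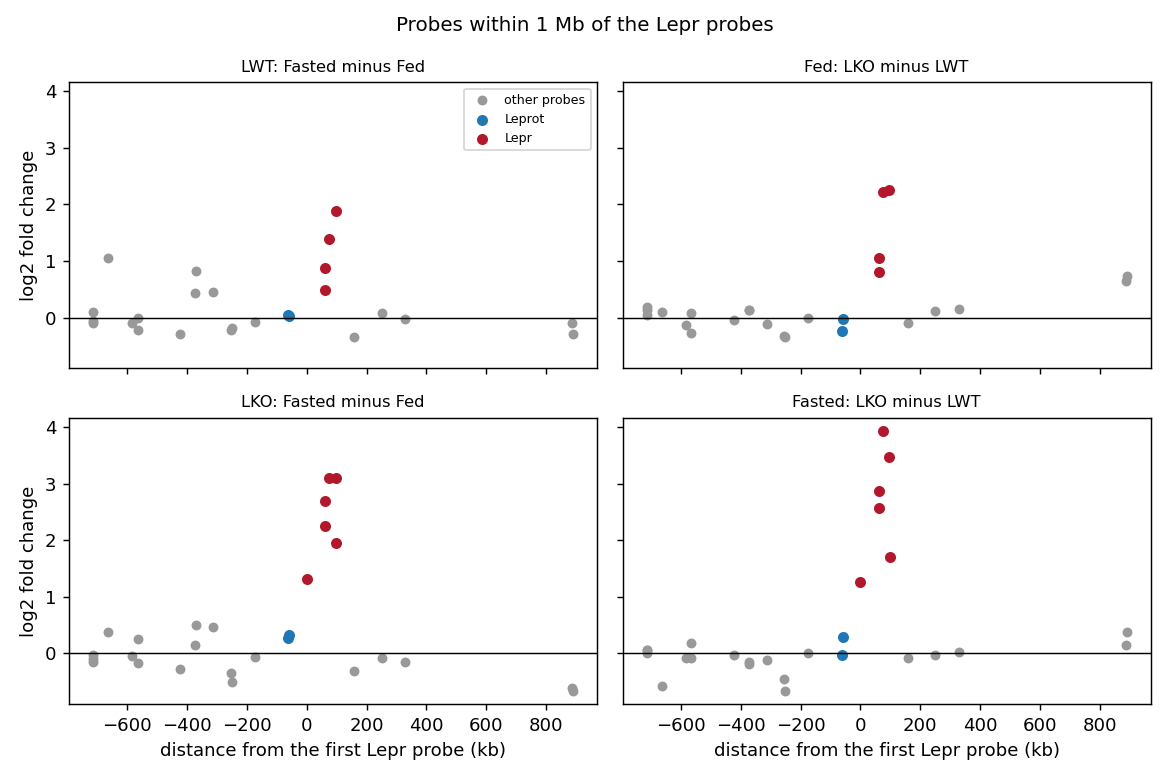
Log2 fold change (vertical axis) of every tested probe within 1 Mb against its distance in kb from the first Lepr probe (horizontal axis), in 4 comparisons. Red points are Lepr probes with at least 1 group above background, blue points Leprot and grey points other probes. In every panel the largest value is that of a Lepr probe, and both Leprot probes lie within 0.33 of no change. The lower panels contain the group on which Lepr was chosen, so the Lepr values there are a description.

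Beyond the receptor itself, 23 genes of leptin receptor signalling were listed and all 23 were tested. LWT fasting raised 2 and lowered 1 of them, where 9.14% of all probes were called. Among them were Irs2, an adaptor shared with the insulin receptor, which rose by 2.60 (SE 0.214, adjusted p = 3.69e-09), and Socs3, a feedback inhibitor of the receptor, which rose by 1.67 (SE 0.222, adjusted p = 3.05e-06). Between fed LKO and LWT 2 were higher and 0 lower against 3.19% of all probes: Irs2 by 1.60 (SE 0.219, adjusted p = 8.46e-05) and Ptpre, a tyrosine phosphatase, by 0.69 (SE 0.163, adjusted p = 0.00568). The median change over the list was 0.10 and 0.06 in these comparisons, and over all probes 0.00 and -0.01.

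Fasting in LKO raised Irs2 by 1.92 and Socs3 by 1.97 and lowered Pik3r1, the regulatory subunit of PI3K, by 0.84 (adjusted p = 9.7e-07, 1.12e-06 and 7.42e-07), where 12.0% of all probes were called, 5.79% higher and 6.18% lower. In the fasted state Irs2 was 0.92 (adjusted p = 0.00713) and Socs3 0.92 (adjusted p = 0.00908) higher in LKO, against 3.61% of all probes called, 1.58% higher and 2.03% lower. The receptor's kinase and its main transcription factor were not called. Jak2 averaged 8.31 to 8.54 over the 4 groups, and Stat3 was 12.48 ± 0.11 in LWT_Fed, 12.79 ± 0.15 in LWT_Fasted, 12.92 ± 0.21 in LKO_Fed and 13.38 ± 0.17 in LKO_Fasted. By limma Stat3 differed by 0.36 in LWT fasting (adjusted p = 0.000809) and 0.41 in LKO fasting (adjusted p = 0.000634). Between fed genotypes it differed by 0.48 (adjusted p = 0.000457) and between fasted genotypes by 0.53 (adjusted p = 0.000178). Each of these was below the fold minimum, as was the -0.20 of Jak2 between fasted genotypes (adjusted p = 0.0481). Cish, another feedback inhibitor, varied from mouse to mouse with an SD of 1.23 in LWT_Fed and gave an adjusted p of 0.102 in LWT fasting. Lep itself, the ligand made by fat cells, averaged 7.65 to 8.10 and was not called. Grb2, an adaptor protein, had one of the smallest values, with 0.01 in LWT fasting.

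**Figure D5:**
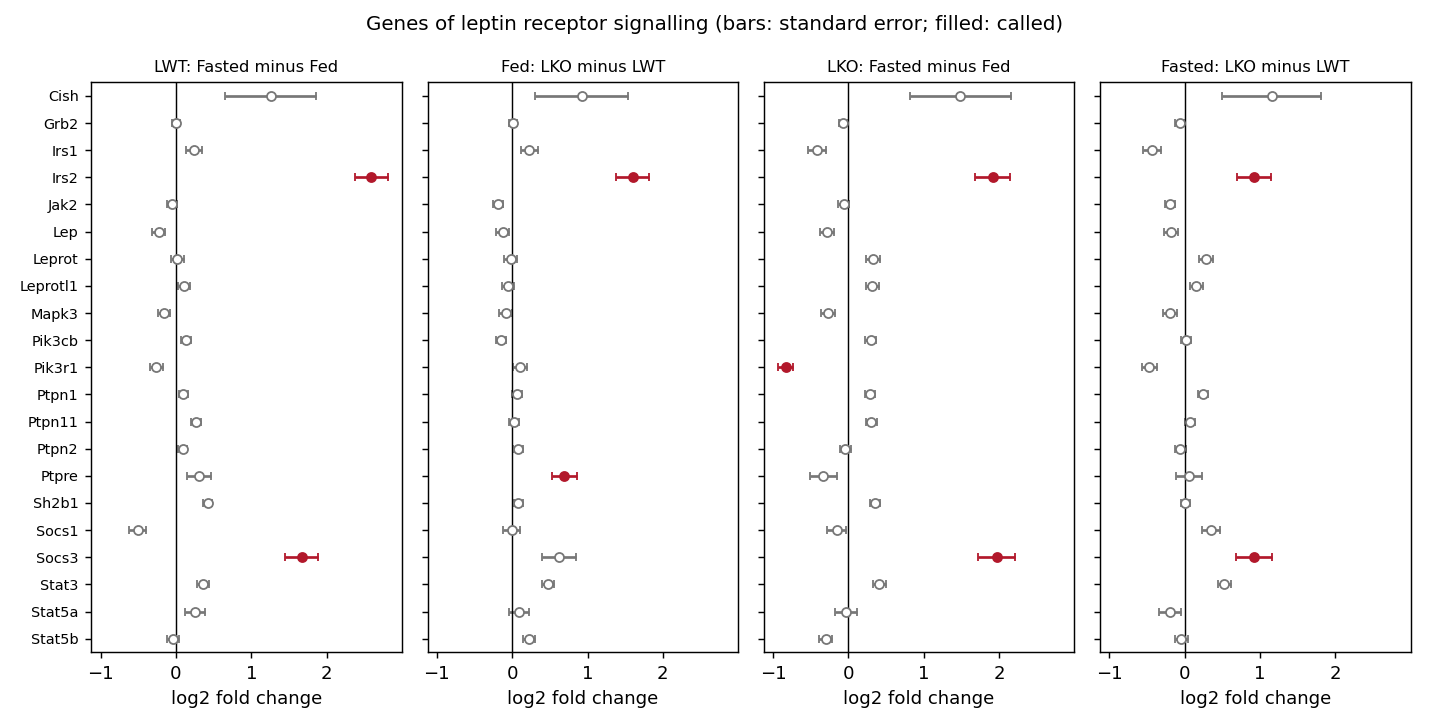
Log2 fold change (horizontal axis) of 21 of the 23 genes of leptin receptor signalling in 4 comparisons, with bars for the standard error from limma and filled points for called genes. Irs2 is filled in all 4 panels and Socs3 in 3, while Jak2 stays within 0.20 of zero throughout.

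Proteases that shed the receptor and proteins that move it to the cell surface formed a list of 8, all tested. Only Bbs2, a subunit of the ciliary trafficking complex, was called, rising by 0.63 in LWT fasting (SE 0.127, adjusted p = 0.000408), where 4.47% of all probes were called higher. The sheddases Adam10 and Adam17 differed by at most 0.19 in any of the 4 comparisons, and Rnf41, a ubiquitin ligase that lowers surface receptors, by at most 0.21. Becn1, a regulator of autophagy, changed by -0.03 in LWT fasting.

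Among 22 other class I cytokine receptors, 21 were tested and Il31ra was not bright enough. LWT fasting raised 2 and lowered 2, fed LKO against LWT raised 1, fasting in LKO raised 1 and lowered 3, and fasted LKO against LWT lowered 3. Of all probes 9.14%, 3.19%, 12.0% and 3.61% were called in these comparisons. Il6ra, the binding chain of the interleukin-6 receptor, rose by 1.22 in LWT fasting (SE 0.161, adjusted p = 2.7e-06) and differed by -0.89 in LKO_Fasted from LWT_Fasted (SE 0.175, adjusted p = 0.00101). Ghr, the growth hormone receptor, differed by -0.59 in that comparison (adjusted p = 3.33e-05), and Prlr, the prolactin receptor, by -0.68 (adjusted p = 0.0366). Lifr, the receptor of leukaemia inhibitory factor, was 0.60 higher in LKO_Fed than in LWT_Fed (adjusted p = 0.00507) and fell by 0.91 with fasting in LKO (adjusted p = 3.91e-05). The fasting change was called different between genotypes for 2 of the 21, Il6ra and Lifr, both with the smaller or more negative change in LKO, where 2.77% of all probes were called, 1.43% upward and 1.35% downward. Osmr, the oncostatin M receptor, rose with fasting by 0.61 in LWT and 0.62 in LKO (adjusted p = 0.000141 and 0.000362). Il13ra1 fell by 0.66 and 0.70 (adjusted p = 0.000163 and 0.00027), and Il2rg fell in LWT by 0.61 (adjusted p = 0.00144). Il6st, the signalling chain shared by several of these receptors, was not called and differed by at most 0.17.

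Genes that insulin holds down through the transcription factor FOXO1 were listed as well, 12 in all and each tested. LWT fasting raised 6 and lowered 1, fed LKO against LWT raised 3, fasting in LKO raised 6 and lowered 2, and fasted LKO against LWT raised 3 and lowered 1. The shares of all probes called higher were 4.47%, 2.12%, 5.79% and 1.58% in these comparisons, and called lower 4.67%, 1.07%, 6.18% and 2.03%. Igfbp1, a secreted binding protein of insulin-like growth factors, averaged 13.75 in LWT_Fed, 15.52 in LWT_Fasted, 15.44 in LKO_Fed and 17.39 in LKO_Fasted. It rose by 1.96 in LWT fasting (adjusted p = 3.71e-05) and was 1.87 higher in fed LKO than in fed LWT (adjusted p = 0.000602). Irs2, counted above, averaged 9.40, 11.87, 11.05 and 12.94 in the same order.

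Other members of that list varied in their order. Pdk4, which restrains glucose oxidation, averaged 9.55 in LWT_Fed, 11.99 in LWT_Fasted, 9.0 in LKO_Fed and 13.25 in LKO_Fasted, and between fed genotypes it gave -0.51 (adjusted p = 0.344). Pck1, a gluconeogenic enzyme, rose by 1.59 in LWT fasting (adjusted p = 1.49e-06) and was 0.81 higher in fed LKO (adjusted p = 0.00992), but gave 0.00 between fasted genotypes (adjusted p = 0.993). Gadd45a, a stress-induced growth arrest gene, fell by 1.46 in LWT fasting (adjusted p = 7.08e-07). G6pc, which releases glucose from its phosphate, rose by 0.68 in LWT fasting (adjusted p = 0.00192) and 0.60 in LKO fasting (adjusted p = 0.0112). Ppargc1a, a coactivator of fasting metabolism, rose by 0.99 in LWT fasting (adjusted p = 0.0016). In LKO fasting Trib1, a pseudokinase, rose by 0.59 (adjusted p = 0.0114) and Cited2, a transcriptional coregulator, fell by 1.02 (adjusted p = 0.000162). Klf15, a transcription factor of fasting metabolism, differed by -0.66 in LKO_Fasted from LWT_Fasted (adjusted p = 0.00823). The list's median change was 0.59 in LWT fasting and 0.20 between fed genotypes, against 0.00 and -0.01 over all probes.

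Over the 24 arrays, the genes whose signal most resembled that of the NM_010704 upstream probe were sought among 21494 others by Pearson's r. The ranking is a description, since the 24 arrays include LKO_Fasted, the group on which Lepr was chosen. Ntf3, a neurotrophin, came first (r = 0.969) and averaged 6.68 ± 0.27 in LWT_Fed, 6.94 ± 0.36 in LWT_Fasted, 7.36 ± 0.41 in LKO_Fed and 10.14 ± 0.56 in LKO_Fasted. Cdc42ep5, an effector of the small GTPase CDC42, followed (r = 0.967) with 7.75 ± 0.21, 8.49 ± 0.39, 8.18 ± 0.22 and 11.17 ± 0.35. After 2 unnamed transcripts came Mpzl1, a cell surface glycoprotein (r = 0.936), Il17rb, a receptor chain for interleukin-17 family cytokines (r = 0.935), and, eighth after another transcript, Cables1 (r = 0.928). With group means removed, r fell to 0.559 for Ntf3, 0.649 for Cdc42ep5, 0.565 for Mpzl1, 0.585 for Il17rb and 0.281 for Cables1.

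Whole liver holds several cell types, and fewer cells of a type cannot be told apart from less RNA per cell. The mean log2 level of 8 stellate cell markers ran from 9.89 to 10.08 in LWT_Fed, 9.65 to 9.97 in LWT_Fasted, 9.79 to 10.12 in LKO_Fed and 9.39 to 10.01 in LKO_Fasted. In LWT fasting 2 of the 8 were called, where 4.67% of all probes were called lower: Lrat and Ngfr fell by 0.90 and 0.86, while Dcn differed by 0.26 (adjusted p = 0.0251) and the median over the list was -0.05. LKO fasting also lowered 2 of the 8, where 6.18% of all probes were called lower, and the list's median was -0.13. The 8 endothelial markers ran from 10.26 to 11.27 over the 24 livers, the 8 Kupffer cell markers from 10.44 to 12.61, and 0 of either list was called higher in any comparison, where 1.58% to 5.79% of all probes were called higher in the 4 comparisons between groups. The median over the Kupffer cell list was -0.43 in LWT fasting and -0.37 between fed genotypes, and over the endothelial list -0.09 and -0.23. Lyve1, an endothelial marker, was lower in LKO_Fed than in LWT_Fed (-0.88, adjusted p = 0.0405, where 1.07% of all probes were called lower), and C1qa, a Kupffer cell marker, fell by 0.60 in LWT fasting (adjusted p = 0.0429). The mean of 7 cholangiocyte markers ran from 7.26 to 7.78 in LWT_Fed, 7.24 to 7.49 in LWT_Fasted, 6.91 to 7.41 in LKO_Fed and 6.57 to 7.11 in LKO_Fasted. Of these, Spp1 was lower in LKO than in LWT both fed (-1.50, adjusted p = 0.000249) and fasted (-2.10, adjusted p = 5.49e-06), and in LWT fasting Krt19 fell by 0.67 (adjusted p = 0.00153) while Sox9 differed by 0.55 (adjusted p = 0.00218), under the fold minimum. The list's median in LWT fasting was -0.09. LKO fasting lowered 2 of the 7, with a median of -0.10. Among adipose markers, 6 of 7 measured, Lpl was higher in LKO_Fasted than in LWT_Fasted by 1.23 and Fabp4 by 0.62, while Cfd differed by -3.00, and the median over the list was -0.04. Between fed genotypes Cfd differed by -2.76 (adjusted p = 0.0123) and the list's median was -0.13, and in LKO fasting Fabp4 rose by 0.83 (adjusted p = 0.000483). The mean of 4 pancreas acinar markers ran from 9.94 to 10.09 in LWT_Fed and 9.72 to 9.97 in LWT_Fasted. In LKO_Fed it ran from 9.72 to 9.92 and in LKO_Fasted from 9.33 to 9.55. Of these, 1 was called lower in LWT fasting, 1 in LKO fasting and 1 between fasted genotypes. The shares of all probes called lower were 4.67%, 6.18% and 2.03% there. The part of these cell types and tissues in the Lepr signal was not tested.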

How the data were processed

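Liver RNA from 24 mice was hybridised to one-colour Agilent SurePrint G3 mouse arrays, 1 array per mouse, and the authors deposited scanner intensity values (Feature Extraction 10.10.1.1) not yet normalized, plus a table of log2 values, which served as an alternative. Positions are mm9, as deposited. Groups came from sample titles. Each of the 6 samples of a group is a separate mouse.

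From the median signal, spots marked as outliers were left out, spots of a probe averaged, and probes kept if well above background on 5 of 6 arrays of any group, which left 32197 of 56605. Values were log2 transformed and quantile normalized. limma 3.58.1 in R 4.3.3 fitted group means with slide and array weights. p-values were adjusted (Benjamini-Hochberg) over all probes, and a call needed an adjusted p of at most 0.05 and a fold over 1.5. The study's methods correct for a washing bath, which the sources used here do not tie to arrays, so slide took its place. Code was tested on simulated data.

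Named genes are every Lepr and Leprot probe, Pik3ca, list members called in a comparison, up to 4 members of a list with the largest and up to 2 with the smallest change, and the 8 genes with the highest Pearson r with the Lepr probe of highest mean. Neighbours within 1 Mb, Jak2, Stat3, Cish, Lep, Il6st, the sheddases and cell type markers were named after their values were seen. Of the signalling list, 2 genes enter the counts but are not reported here by name. The members and lists were chosen with earlier results of these data known. Same-numbered arrays of different groups did not deviate together, so numbers were not taken as pairs. Alternatives covered background correction, scaling, filters, slide, weights, the deposited table, and leaving out arrays.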

Additional observations from a re-analysis of the deposited data

Results flagged for a closer look

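Of 32 groups of 6 arrays examined for Lepr and Leprot probes, 2 held a sample whose gap to its nearest neighbour, as a share of the group's range, exceeded Dixon's 95% critical value for 6 samples, where chance gives about 1 in 20 groups. For the NM_010704 upstream probe, LKO_Fed replicate 5 was at 10.55 against 10.27 for the next mouse (ratio 0.747). For the NM_146146 probe, LWT_Fasted replicate 3 was at 6.51 against 5.82 (ratio 0.642).

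The difference between genotypes in the size of the fasting change, LKO less LWT, had an adjusted p of at most 0.05 in limma's interaction test and exceeded 1.5-fold for 5 of the 64 tested members of the 4 pathway and family lists (1 higher and 4 lower, where 2.77% of all probes were called, 1.43% higher and 1.35% lower), for the adipose marker Fabp4 and for Pik3ca. Ghr (-0.54, adjusted p = 0.00513), Pik3r1 (-0.58, adjusted p = 0.0127) and Insr (-0.44, adjusted p = 0.0332) passed on p alone. It was 1.70 for Pdk4 (adjusted p = 0.0422), -0.66 for Irs1, an insulin receptor substrate (adjusted p = 0.0182), and -1.20 for Il6ra (adjusted p = 0.00428). For Lifr it was -0.72 (adjusted p = 0.0316), for Klf15, a transcription factor of fasting metabolism, -0.81 (adjusted p = 0.0381), for Pik3ca -0.60 (adjusted p = 0.0299), and for Fabp4 1.07 (adjusted p = 0.00762).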

How the results depend on the processing

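Of 222 recomputed summary values 216, and of 973 values of single Lepr probes 943, kept their call or stayed within the size limits set (1.5 times for a count, 1 SD for a value without a test). The others moved in size, except that 3 single-probe changes gained a call, and none changed sign. The count of called Lepr probes stayed at 3 to 4 in LWT fasting and at 4 in fed mice when each array was left out, the tests between probes that passed ran from 23 to 26 (25 of 30 with all arrays, 16 of them with ENSMUST00000145024 or NM_146146, near background in both groups, and so a restatement of the other probe's change), and the listed genes' calls from 36 to 43 (41 with all arrays). Among the 3 probes well above background on every array 5 of 6 such tests passed, also with any array left out, with the processed signal (18 of 30 over all 6 probes), and with the deposited matrix, where 5 probes gave 20 tests and 17 passed. Calls among the 21 neighbouring probes numbered 7 over 4 comparisons, against 4 to 9 with 1 array left out (4 without LKO_Fed replicate 4), 11 with the processed signal scaled to the 75th percentile and 24 without a minimum fold. The listed genes gave 87 calls without that minimum. The NM_010704 upstream difference of LKO_Fasted from LWT_Fasted was 3.10 within slide 3 (2.57 over all slides, 2.43 to 2.78 with 1 array left out), and those of NM_010704 downstream and NM_001122899 were 5.26 and 4.95 there (3.93 and 3.46 over all slides). The cause of these shifts was not tested, except that dropping the minimum fold admits smaller changes by construction. With the replicate number as a block in place of slide, the counts were 3, 4, 42 and 7 and the upstream difference 2.54, so the counts of Lepr calls did not change and the listed genes gave 42 calls against 41. Signal near background limits the ENSMUST00000145024, ENSMUST00000128948 and NM_146146 probes, whose change in LKO fasting was 1.32, 2.69 and 1.96 in the reported setting, 3.46, 3.23 and 4.45 with the processed signal, and 1.03, 2.50 and 1.61 after normexp background correction.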

Other observations

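Lepr signal in the fasted LWT mice ran with the first principal component of all other probes, a relation noticed after the values were seen. The p-values below do not account for that choice, and the adjustment over 3 groups was made for each coefficient separately. Over the 6 LWT_Fasted mice, Pearson's r with the NM_010704 upstream probe was 0.858 (exact permutation p = 0.00694, adjusted p = 0.0208 over 3 groups) and Spearman's rho 0.943 (exact permutation p = 0.0167, adjusted p = 0.025). Without replicates 1 and 5, the farthest from the median component score, r was 0.977. In LKO_Fed r was 0.523 (exact permutation p = 0.29, adjusted p = 0.431) with rho 0.943 (exact permutation p = 0.0167, adjusted p = 0.025), and r was 0.703 without replicates 2 and 6. In LKO_Fasted, on which the gene was chosen, r was 0.79 and rho 0.771, with no test, and r was 0.406 without replicates 2 and 3. In LWT_Fed r was -0.41 (exact permutation p = 0.431, adjusted p = 0.431) with rho -0.49 (exact permutation p = 0.356, adjusted p = 0.356), and r was -0.18 without replicates 2 and 3. Each slide holds 2 arrays of a group, too few for a value within slides.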
